A study of Oryzias latipes with 2 samples.

Results

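The genes described here encode ATP-driven pumps of adult medaka skin cells, most of them for protons or metal cations, with their subunits and accessory proteins. They were chosen by symbol: every feature whose symbol begins with atp6v, atp6ap, atp1a, atp1b, atp2a, atp2b, atp2c, atp7 or atp13a, which gave 42 of the 23601 features in the deposited matrices. Of these, 12 encode subunits of the cytosolic V1 sector of the V-type proton pump, 8 the membrane V0 sector, 4 its accessory proteins, 7 the Na,K-ATPase, 3 endoplasmic reticulum calcium pumps (SERCA), 2 plasma membrane calcium pumps (PMCA), 1 a Golgi calcium and manganese pump (SPCA), 2 copper pumps and 3 the P5-type ATPases. Levels chose none of them. Of the 23601 features, 13522 carry a symbol, and pump genes among the rest were not covered. Isoform shares and family levels below are therefore of the genes found by symbol. All 42 had at least 1 UMI (unique molecular identifier, 1 captured transcript molecule) in the cells analysed.

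The skin and scales came from adult male and female wild-type fish of the HdrR strain, which the labels give the southern phenotype. Both libraries, run 1 and run 2, carry those same labels, and nothing says that they came from separate fish, so p-values measure only the spread between sums of cells of these libraries. Cells were freed with TrypLE, an enzyme mix, at 37 °C for 1 h, stained with Draq5 and sorted, with pigment cells enriched, as the submitters' design text has it, through both their GFP and their mCherry signals. The counts were of transcript 3′ ends in 10x Genomics droplets, with 4347 cells analysed from run 1 and 556 from run 2, and 0 barcodes shared.

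The V-type pump is a rotary motor: V1 splits ATP, V0 carries the protons, and the pair acidifies lysosomes, endosomes and the lysosome-related organelles in which pigment cells store their pigments. The other pumps are P-type ATPases, which become phosphorylated during each cycle: the Na,K-ATPase sets the sodium and potassium gradients of the plasma membrane, SERCA and PMCA clear calcium from the cytosol, and the copper pumps load copper into the secretory pathway, where the melanin enzyme tyrosinase takes up its copper. In pigment cells the acidity and the ion content of the pigment organelle are known to bear on what it stores.

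UMIs were summed per cell class and run, and 6 classes entered. The KIRREL3+ cells, leucophore-like (leucophores are the white, light-scattering pigment cells), numbered 26 in run 1 and 217 in run 2, with sums of 163404 and 2623024 UMIs. The scarb1+ sox5+ cells, xanthophore-like (yellow to orange pigment cells), numbered 1871 in run 1 with 8577057 UMIs, and the GPNMB+ pnp4a+ cells, iridophore-like (reflective pigment cells), 29 in run 1 with 76375 UMIs. Cells that clustered with the xanthophore-like ones but had a UMI of pmela, a melanosome gene, were set aside (2 in run 1 and 8 in run 2), and the 4 xanthophore-like cells and 1 iridophore-like cell left in run 2 were too few for a sum. Keratinocyte-like cells numbered 904 and 164, fibroblast-like cells 267 and 33, and T or NK cell-like cells 580 and 45 in runs 1 and 2.

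Clusters were named from the marker lists summed here, so each class had to be high in its own list. The sums describe the classes and are no independent check of their names. The 6 leucophore markers summed to 7026 and 9556 CPM (counts per 1000000 UMIs of the sum) in the leucophore-like sums and 1349 in the xanthophore-like one, of which pax7a made 962 CPM. The 6 xanthophore markers stood at 4361 CPM in the xanthophore-like sum and at 863 and 737 in the leucophore-like ones. The 7 iridophore markers stood at 10619 CPM in iridophore-like cells, 156 or less in the other pigment sums and 557 and 680 in the keratinocyte-like ones. The 19 keratinocyte marker features were at 65993 and 53761 CPM in the keratinocyte-like sums, but also at 8244 and 17378 CPM in fibroblast-like cells (17 and 12 of 19 detected) and at 3234 CPM in iridophore-like cells (11 of 19). The 17 fibroblast marker features were at 16138 and 13364 CPM in the fibroblast-like sums, so that in run 2 the keratinocyte markers lay above the class's own. The iridophore-like sum also held 1649.8 CPM of the leucophore markers, 1244 CPM of it slc23a4, and 995 CPM of the xanthophore markers, with sox5 at 851 CPM against 871 CPM in the xanthophore-like sum. The part of these markers in the results on those classes was not tested. The 42 pump genes and the other lists used below were kept out of the clustering.

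**Figure D1:**
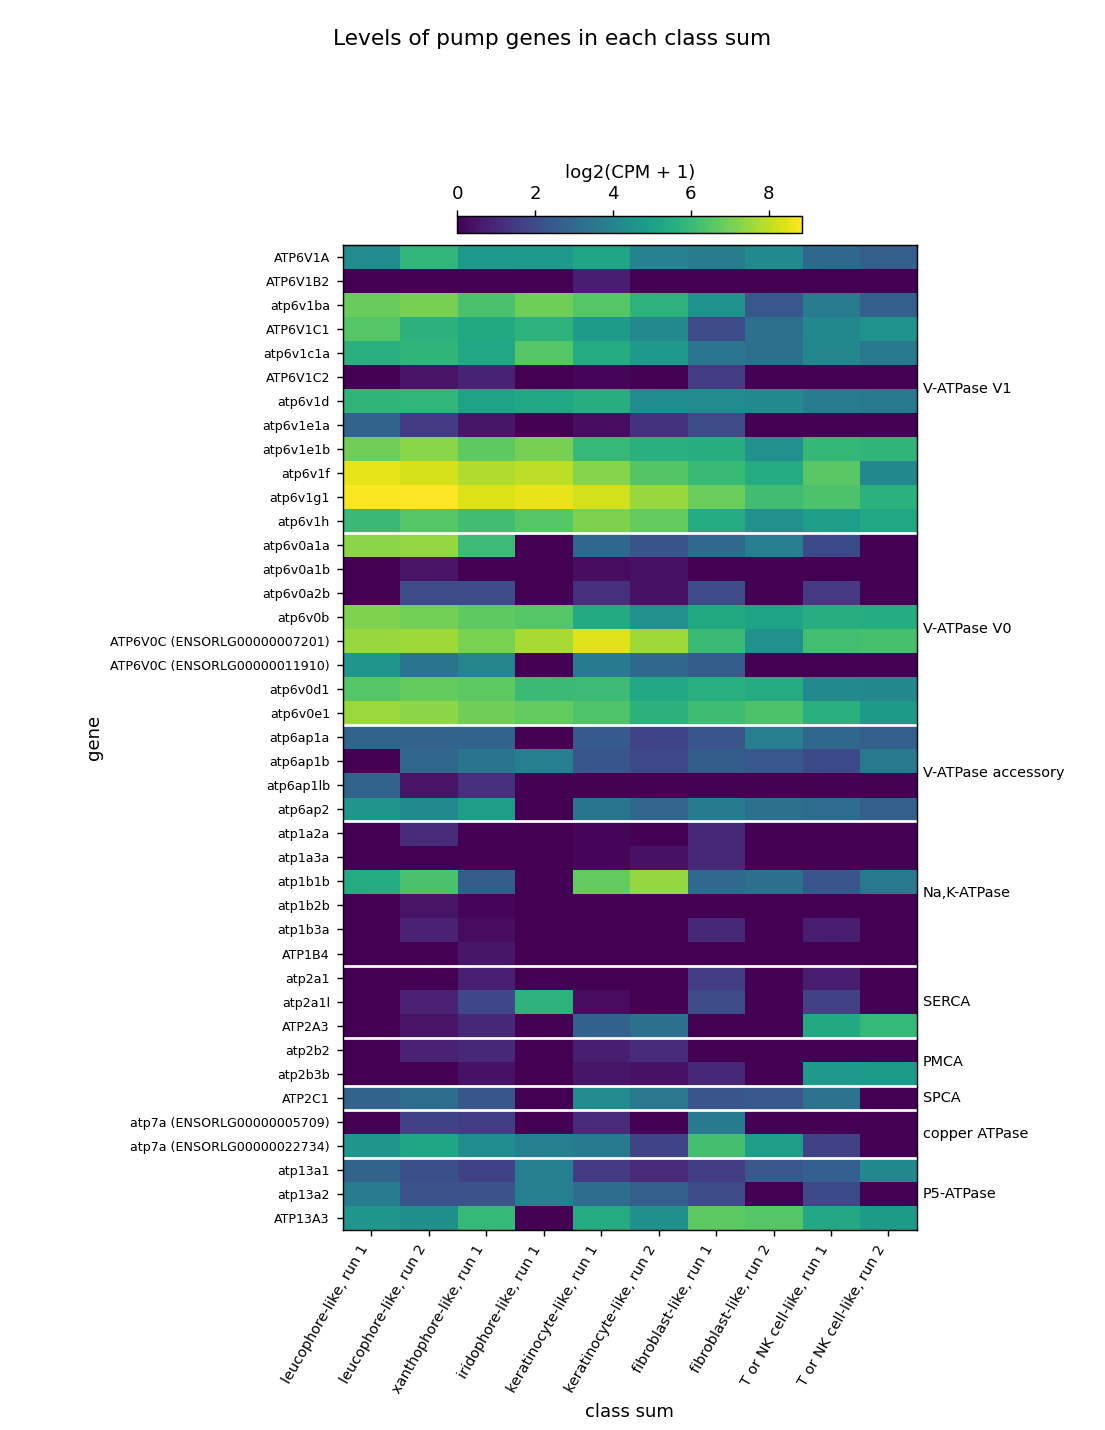
Levels of the pump genes reported here, as log2(CPM + 1), in each of the 10 class sums, with rows grouped by pump family. V1 and V0 rows are brightest in the leucophore-like, xanthophore-like, iridophore-like and keratinocyte-like columns, and most other families have 1 bright gene and several near 0.

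Transcripts of the proton pump were most abundant, as a share of all UMIs, in the leucophore-like cells among the 6 classes. The 20 V1 and V0 genes together took 2099 CPM (95% exact Poisson interval 1883 to 2333) of all UMIs in the leucophore-like sum of run 1 and 2152 CPM (2097 to 2209) in that of run 2. They took 1489 CPM in xanthophore-like cells, 1649.8 CPM (1374 to 1964) in iridophore-like cells, and 1455 and 869.7 CPM in keratinocyte-like cells of runs 1 and 2. Fibroblast-like cells were at 569.5 and 407 CPM and T or NK cell-like cells at 519.5 and 377 CPM. The leucophore-like runs agreed within counting error, whereas the keratinocyte-like level was 1.67-fold higher in run 1 than in run 2 (1.60 to 1.75, counting error only). All 16 V1 and V0 genes with at least 10 UMIs in keratinocyte-like cells of run 1 were lower in run 2. Their median log2 change was -0.77, against -0.28 over all 11171 genes chosen by that cutoff. How many of those 11171 were lower was not counted. Choosing genes by their run 1 counts favours a fall in run 2.

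Within run 1 the leucophore-like sum was 1.41-fold the xanthophore-like one (1.26 to 1.57) and 1.44-fold the keratinocyte-like one (1.29 to 1.61), and within run 2 it was 2.48-fold the keratinocyte-like one (2.36 to 2.60). These intervals, like all below that come with a ratio, cover counting error only. The order of leucophore-like and keratinocyte-like cells depended on the scaling. TMM factors, which bring most genes of the sums to a common level, were 1.36 and 1.04 for leucophore-like, 1.92 for iridophore-like and 0.583 and 0.586 for keratinocyte-like sums. Divided by them, the V1 and V0 total became 1540.1 and 2062 in leucophore-like, 1443 in xanthophore-like, 861 in iridophore-like, and 2493 and 1483 in keratinocyte-like cells, so that the keratinocyte-like sum of run 1 was highest. Fibroblast-like (459.85 and 382) and T or NK cell-like cells (665 and 375) were lowest on that scale too.

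**Figure D2:**
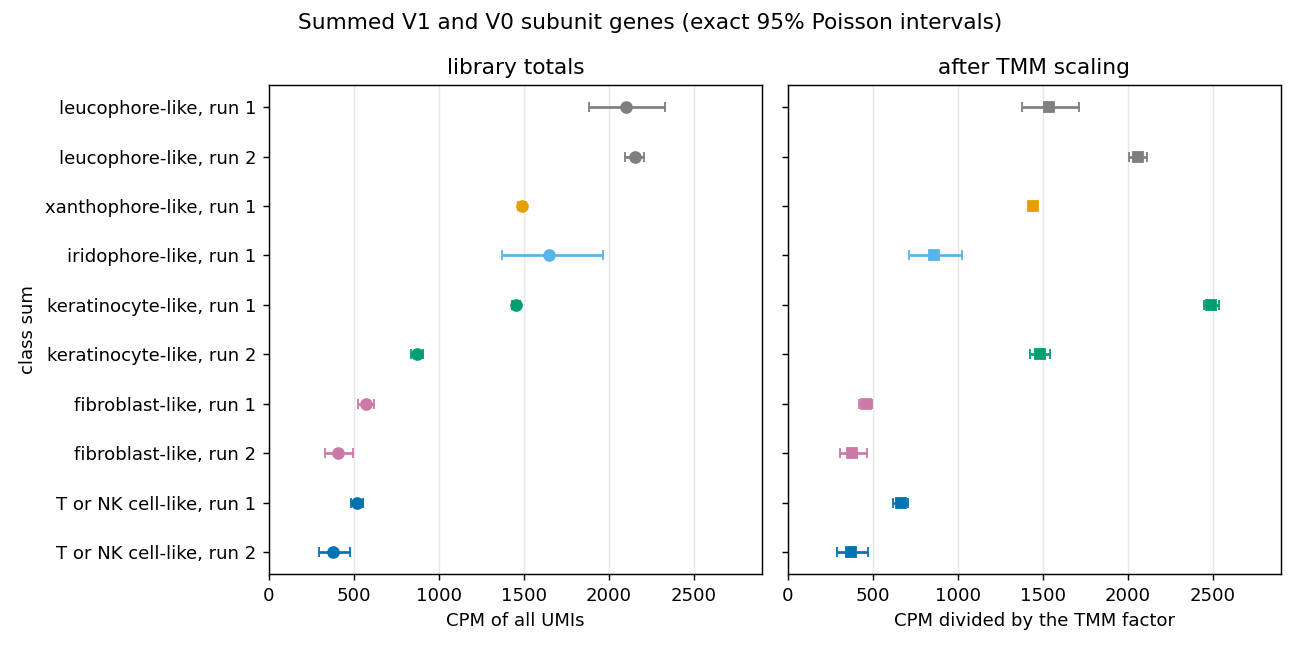
Summed level of the 20 V1 and V0 genes in each class sum, as CPM of all UMIs (left) and as CPM divided by the TMM factor (right), with exact 95% Poisson intervals as bars. Leucophore-like sums are highest on the left at 2099 and 2152 CPM, and the keratinocyte-like sum of run 1 is highest on the right at 2493.

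Differences were tested with edgeR's quasi-likelihood test on the 10 class sums, with class and run as terms, over 12493 genes. Called genes had a Benjamini-Hochberg adjusted p below 0.05 and changed by 1 or more, up or down, on the log2 scale. Of the 42 genes, 29 passed the filter on low counts, 15 of them V1 or V0 subunits. The other 13 (ATP6V1B2, ATP6V1C2, atp6v1e1a, atp6v0a1b, atp6v0a2b, atp6ap1lb, atp1a2a, atp1a3a, atp1b2b, atp1b3a, ATP1B4, atp2a1 and atp2b2) were at or below 6.12 CPM in every class sum. A gene that passed the filter only through a class in which it is high had to differ between classes. Non-pigment cells below means the mean of the keratinocyte-like, fibroblast-like and T or NK cell-like classes, and all comparisons share sums.

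Against non-pigment cells, 11 of the 29 genes were higher in leucophore-like cells and 1 was lower, while 13.4% of all genes tested were called higher, 8.92% lower and 22.4% in either direction. Of the 15 V1 and V0 genes, 9 were called higher, all 15 had a positive log2 fold change, and their median was 1.34 against 0.09 over all genes tested. Leaving out the leucophore-like sum of run 2 left 2 of the 12 calls, and leaving out the keratinocyte-like sum of run 2 left 7. In xanthophore-like cells, which have 1 sum and are assumed to vary like the other classes, 2 of the 29 genes were higher (15.7% of all genes) and 1 was lower (8.33%; 24% either way), with a V1 and V0 median of 0.97 against 0.08 over all genes. That count moved with the scaling: 6 of the 29 were higher with DESeq2's size factors and 9 with library totals, and V1 and V0 genes called were 2, 5 and 8. Calls over all 12493 genes moved too, with 1962 higher by TMM, 2165 with DESeq2's size factors and 2788 with library totals. Under the latter 2 scalings the V1 and V0 median was 0.87 against 0.01 over all genes and 1.25 against 0.37. In iridophore-like cells 0 of the 29 genes were higher (4.39% of all genes) and 1 was lower (2.2%; 6.6% either way) by edgeR, with 2 genes at an unadjusted p under 0.05, and DESeq2 called 0 in either direction. There the V1 and V0 median was -0.25 against -1.06 over all genes, and its sign turned with the scaling. It was 0.20 against -0.60 with DESeq2's size factors and 0.91 against 0.09 with library totals, above the median of all genes under each.

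In the V1 sector the most abundant genes in the leucophore-like sums were atp6v1g1 and atp6v1f, which encode the G and F subunits of the stalks. atp6v1g1 took 441 CPM of the leucophore-like sum of run 1 and 465 CPM of that of run 2, with 337 CPM in xanthophore-like, 379.7 in iridophore-like, 303 and 181 in keratinocyte-like, 112 and 69.2 in fibroblast-like and 83.5 and 49.2 in T or NK cell-like cells. All 4 pigment sums lay above all 6 non-pigment sums. How many of all genes tested separate the sums in such a way was not counted, for this gene or those below. The log2 fold change of leucophore-like over non-pigment cells was 1.58 ± 0.39 (SE, adjusted p = 0.000461). For atp6v1f, too, all 4 pigment sums lay above all 6 non-pigment sums, at 367 and 316 CPM in leucophore-like, 224 in xanthophore-like and 249 in iridophore-like cells, against 152 and 88.7 in keratinocyte-like, 61.4 and 43.3 in fibroblast-like and 95.2 and 16.4 in T or NK cell-like cells. Its log2 fold change for leucophore-like cells was 1.85 ± 0.40 (adjusted p = 4.01e-05).

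The catalytic head of V1 alternates A and B subunits. atp6v1ba, a B subunit gene, measured 110.2 and 131 CPM in leucophore-like, 78.3 in xanthophore-like, 118 in iridophore-like and 90.2 and 51.6 in keratinocyte-like cells, and at 22.5 and 4.33 CPM in fibroblast-like and 12.3 and 5.47 CPM in T or NK cell-like cells. The groups of pigment and keratinocyte-like sums did not overlap those of fibroblast-like and T or NK cell-like cells. The gene was higher in leucophore-like than in non-pigment cells (log2 fold change 2.11 ± 0.47, adjusted p = 7.63e-05). ATP6V1B2, the other B subunit feature, had 6 UMIs in keratinocyte-like cells of run 1 and 0 in the other 9 sums. ATP6V1A, the A subunit that carries the ATP-splitting site, measured 18.4 and 56.4 CPM in leucophore-like cells, and its 37.0 and 14.4 CPM in keratinocyte-like cells overlapped that range.

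The C subunit, which clamps V1 to V0 when the pump assembles, was encoded by a pair of genes in use at the same time. ATP6V1C1 gave 47.7% (95% exact binomial interval 41.6 to 53.7) of the C subunit UMIs in leucophore-like cells of run 2 and 50.9% (47.1 to 54.6) in xanthophore-like cells, with nearly all the rest from atp6v1c1a. In keratinocyte-like cells ATP6V1C1 gave 39.5% (35.7 to 43.5) in run 1 and 38.8% (30.1 to 48.1) in run 2, and atp6v1c1a 60.3% and 61.2%. In iridophore-like cells 4 of 11 C subunit UMIs were from ATP6V1C1, too few to place it with either. ATP6V1C1 was higher in leucophore-like than in non-pigment cells (91.8 and 50.3 CPM, log2 fold change 2.02 ± 0.53, adjusted p = 0.00117), a call kept in all 19 alternatives. These paralogs may share reads, and their split is uncertain to that extent.

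Of the other V1 genes, atp6v1e1b (a stalk subunit) was called higher in leucophore-like cells at 1.16 ± 0.43 (adjusted p = 0.0337), and ATP6V1A, atp6v1c1a, atp6v1d and atp6v1h were not. The atp6v1e1b call was kept in 12 of 19 alternatives, with a log2 fold change of 0.47 to 1.69 over them. It was lost, among others, without the run 2 sum of leucophore-like or fibroblast-like cells or either keratinocyte-like sum. atp6v1h, the H subunit that holds V1 idle when it is released, had its highest level in keratinocyte-like cells, at 137 and 106 CPM, with 61.2 and 90.4 in leucophore-like cells. Between the E subunit paralogs, atp6v1e1b carried all but 19 of the E subunit UMIs of the 10 sums.

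In the V0 sector the pigment classes differed in which a subunit gene they used. The a subunit is the stationary side of the proton path and its isoforms place the pump in different membranes. atp6v0a1a took 159 and 170.4 CPM of the 2 leucophore-like sums and 65.8 CPM of the xanthophore-like sum. It was at 6.92 and 3.97 CPM in keratinocyte-like, 7.16 and 12.98 in fibroblast-like and 2.94 and 0 in T or NK cell-like cells. Iridophore-like cells had 0 UMIs of it in 76375, which allows up to 39.3 CPM (3 UMIs). The leucophore-like and xanthophore-like sums were above every other sum. The log2 fold change over non-pigment cells was 4.54 ± 0.50 in leucophore-like cells (adjusted p = 5.52e-18) and 3.37 ± 0.56 in xanthophore-like cells (adjusted p = 3.36e-08), and both calls were kept in every alternative run.

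Within run 1 atp6v0a1a was 2.42-fold higher in leucophore-like than in xanthophore-like cells (1.57 to 3.58), a difference the fit across sums did not call (log2 fold change 1.16 ± 0.72, adjusted p = 0.525). Against the limit of 3 UMIs it was at least 4.05-fold higher in leucophore-like than in iridophore-like cells and at least 1.67-fold higher in xanthophore-like than in iridophore-like cells. The leucophore-like against iridophore-like comparison called it higher (adjusted p = 0.00351), as 1 of 29 genes higher and 0 lower, beside 1.42% and 1.77% of all genes (3.19% either way), and DESeq2's test lost that call (adjusted p = 0.0747). Xanthophore-like and iridophore-like cells have 1 sum each, so their difference has no test.

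tcirg1b, the fish counterpart of the mammalian gene for the a3 subunit, is named outside the symbol rule and was taken from the list of pump assembly and regulation genes. It stood at 144 CPM in iridophore-like cells (11 UMIs, 71.9 to 258 CPM) and at 78.2 and 23.1 CPM in keratinocyte-like cells, but at 6.12 and 10.7 CPM in leucophore-like and 8.16 CPM in xanthophore-like cells. Fibroblast-like cells were at 10.225 and 0 CPM and T or NK cell-like cells at 4.11 and 5.47. Of the UMIs of tcirg1b and atp6v0a1a together, tcirg1b gave 5.89% (3.95 to 8.41) in leucophore-like cells of run 2, 11.04% (8.71 to 13.7) in xanthophore-like cells, 91.9% (89.7 to 93.7) and 85.3% (75.3 to 92.4) in keratinocyte-like cells of runs 1 and 2, and 11 of 11 UMIs in iridophore-like cells.

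Within run 1 tcirg1b was 17.6-fold higher in iridophore-like than in xanthophore-like cells (8.43 to 33.5), and its iridophore-like level was 1.84-fold the keratinocyte-like one (0.915 to 3.31). The keratinocyte markers of the iridophore-like sum were at 3234 CPM against 65993 CPM in keratinocyte-like cells, while tcirg1b was at 144 and 78.2 CPM, and their part in the tcirg1b value was not tested. The gene was called higher in keratinocyte-like than in fibroblast-like and T or NK cell-like cells (log2 fold change 4.097 ± 0.58, adjusted p = 3.997e-11). It was not called between leucophore-like and iridophore-like cells, nor in iridophore-like against non-pigment cells.

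**Figure D3:**
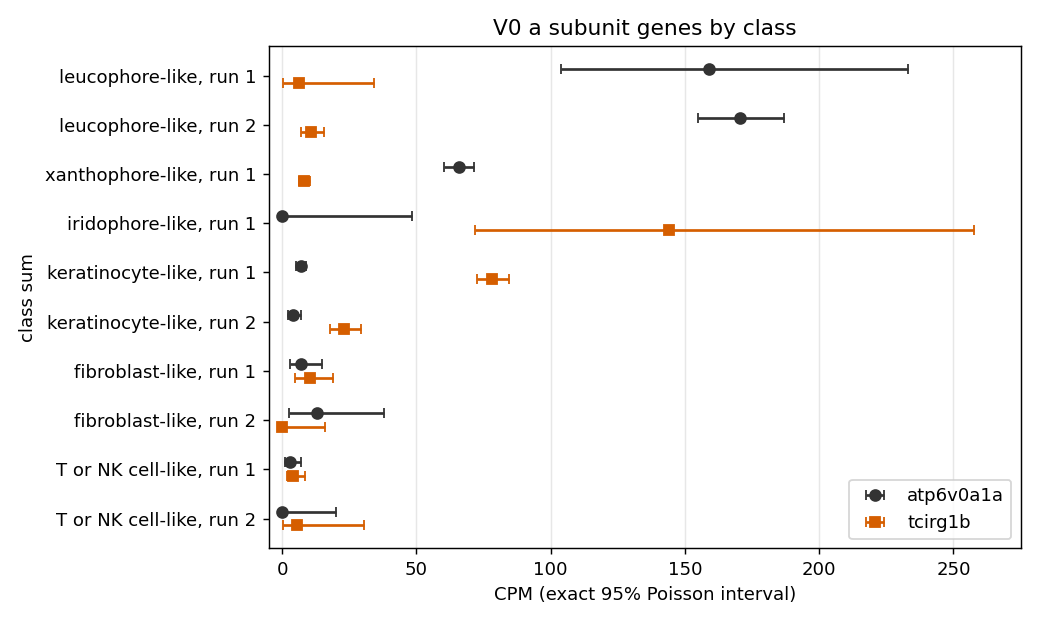
Level in CPM of the V0 a subunit genes atp6v0a1a (circles) and tcirg1b (squares) in each class sum, with exact 95% Poisson intervals. atp6v0a1a is the higher gene in leucophore-like (159 and 170.4 CPM) and xanthophore-like cells (65.8 CPM), and tcirg1b in iridophore-like (144 CPM) and keratinocyte-like cells (78.2 and 23.1 CPM).

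The c subunit forms the ring that turns and carries protons. ENSORLG00000007201, the main feature with the symbol ATP6V0C, was at 177 and 195 CPM in leucophore-like, 134 in xanthophore-like and 209 in iridophore-like cells, and at 344 and 194 in keratinocyte-like cells, so that the pigment and keratinocyte-like sums overlapped. It did not pass the test in either pigment class against non-pigment cells. The second feature of that symbol, ENSORLG00000011910, was lower throughout, at 24.5 and 9.53 CPM in leucophore-like, 15.4 in xanthophore-like and 11.8 and 6.85 in keratinocyte-like cells, with 0 UMIs in iridophore-like and T or NK cell-like cells and 5 in fibroblast-like cells. It gave 10.3% (8.71 to 12.1) of the c subunit UMIs in xanthophore-like cells and 3.32% (2.72 to 4.004) in keratinocyte-like cells of run 1. It was called higher in leucophore-like and in xanthophore-like than in non-pigment cells (adjusted p = 0.00964 and 0.00916), with fitted sizes that rest on sums at 0. DESeq2's test lost each of these calls, which were kept in 15 of 19 alternatives for leucophore-like and 15 of 18 for xanthophore-like cells. Reads may be shared between the ATP6V0C copies.

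atp6v0b, which encodes the c″ subunit of the ring, was higher in each pigment sum than in each non-pigment sum: 141 and 126 CPM in leucophore-like, 99.8 in xanthophore-like and 91.7 in iridophore-like cells, against 21.3 to 44.7 CPM in the 6 others. Its log2 fold change for leucophore-like cells was 1.41 ± 0.43 (adjusted p = 0.0067). atp6v0e1, a small V0 subunit, took 184 and 160.5 CPM of the leucophore-like sums and 27.3 to 84.9 CPM of the non-pigment ones, and passed the test (1.07 ± 0.41, adjusted p = 0.0436), a call kept in 13 of 19 alternatives and lost, among others, without the leucophore-like or the keratinocyte-like sum of run 2 or the fibroblast-like sum of run 1. atp6v0d1, the subunit that couples the ring to the central stalk, was at 91.8 and 108 CPM in leucophore-like and 99.2 in xanthophore-like cells against 16.4 to 66.7 CPM, and did not pass.

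**Figure D4:**
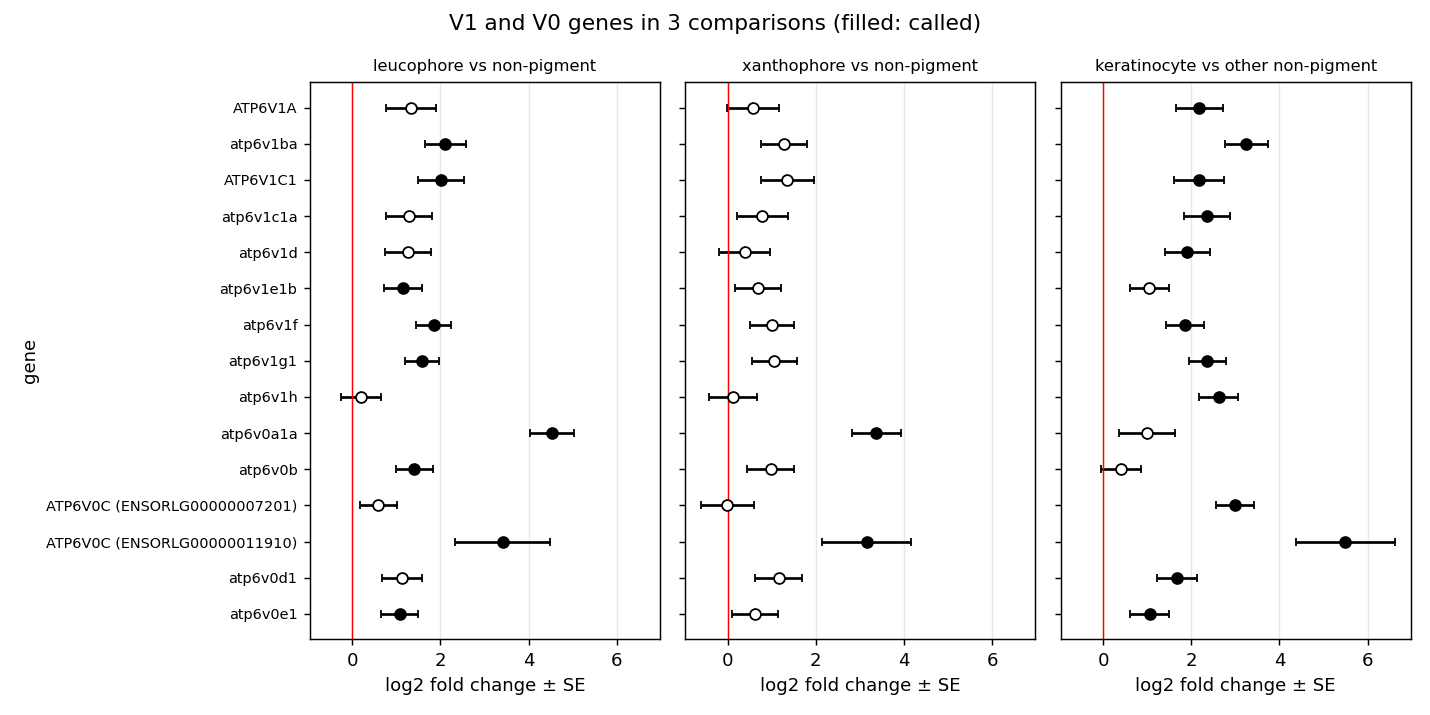
Log2 fold change with its standard error of the 15 V1 and V0 genes tested, for leucophore-like and xanthophore-like cells against non-pigment cells and for keratinocyte-like against fibroblast-like and T or NK cell-like cells. Filled circles are genes called, 9 on the left, 2 in the middle and 12 on the right, and atp6v0a1a lies farthest to the right in the leucophore-like and xanthophore-like panels.

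Between leucophore-like and xanthophore-like cells no proton pump gene passed the test. Of the 29 genes, 1 was higher in leucophore-like cells and 0 were lower, beside 2.64% and 3.16% of all genes tested (5.8% either way), and the 1 gene was not a proton pump gene. Of the 15 V1 and V0 genes, 14 had a positive log2 fold change, with a median of 0.52 against -0.03 over all genes, and 0 were called. DESeq2's test also called 1 of the 29 genes higher, and by edgeR 1 of the 29 was at an unadjusted p under 0.05. That a gene missed the threshold does not show that its level was alike.

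The accessory proteins were low everywhere. atp6ap2, which helps the pump assemble and also serves as the prorenin receptor, was the highest, at 24.5 and 17.9 CPM in leucophore-like and 29.3 in xanthophore-like cells against 5.47 to 11.2 CPM in the non-pigment sums, and 0 UMIs in iridophore-like cells. The leucophore-like and xanthophore-like sums lay above all non-pigment sums, and neither comparison with non-pigment cells passed the test. In the iridophore-like sum 3 UMIs are 39.3 CPM, so its 0 UMIs do not place it below them. atp6ap1a and atp6ap1b ranged up to 13.1 CPM and were not called in any comparison.

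Keratinocyte-like cells carried more proton pump transcript than the other non-pigment classes. Against fibroblast-like and T or NK cell-like cells, 15 of the 29 genes were higher and 1 was lower, beside 23.8% and 8.2% of all genes, and 32% either way. The 15 held 12 of the 15 V1 and V0 genes, the SPCA gene ATP2C1, atp13a2 and atp1b1b. The V1 and V0 median was 2.18 against 0.32 over all genes tested, and 11 or 10 of the 15 were called under the other scalings. Over all 12493 genes, 2968 were higher by TMM, 2674 with DESeq2's size factors and 2108 with library totals. The main ATP6V0C feature had a log2 fold change of 2.99 ± 0.42 (adjusted p = 3.07e-11), atp6v1ba 3.24 ± 0.49 (adjusted p = 4.32e-10) and atp6v1h 2.62 ± 0.44 (adjusted p = 3.15e-08). Without the keratinocyte-like sum of run 1, the 16 calls became 8. ATP2C1 stood at 18.6 and 10.8 CPM in keratinocyte-like cells against 0 to 8.82 CPM in the other 8 sums (2.33 ± 0.63, adjusted p = 0.00119). Its human counterpart is the gene of Hailey-Hailey disease, in which keratinocytes lose their cohesion.

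Of the Na,K-ATPase, the features atp1a2a and atp1a3a had at most 3 UMIs in any of the 10 sums. Features without a symbol were not assigned to a pump family.

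Beta subunits carry the pump to the cell surface. atp1b1b measured 105 and 176 CPM in keratinocyte-like cells and 42.8 and 79.7 CPM in leucophore-like cells, but 5.13 CPM in xanthophore-like, 7.16 and 8.65 in fibroblast-like and 4.11 and 10.9 in T or NK cell-like cells, with 0 UMIs in iridophore-like cells. Keratinocyte-like sums were highest, leucophore-like sums next and the rest low, without overlap of the sums. In the iridophore-like sum 3 UMIs are 39.3 CPM, close to the 42.8 CPM of leucophore-like cells of run 1. Single keratinocyte-like clusters ranged from 30.6 CPM (run 1) to 221 CPM (run 2), the lowest of them below both leucophore-like sums. Keratinocyte-like cells exceeded the other non-pigment classes by a log2 fold change of 4.98 ± 0.52 (adjusted p = 1.85e-20). The gene was also the 1 called between leucophore-like and xanthophore-like cells (2.92 ± 0.80, adjusted p = 0.00715), with a within-run 1 ratio of 8.35 (3.17 to 18.7, from 7 UMIs against 44). Without the leucophore-like sum of run 2 that call was lost (adjusted p = 0.0853). Its lower value in xanthophore-like than in non-pigment cells (-1.77 ± 0.69, adjusted p = 0.0434) rests on the keratinocyte-like sums, since fibroblast-like and T or NK cell-like cells were as low.

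Of the calcium pump genes found by symbol, a SERCA and a PMCA gene were highest in T or NK cell-like cells. ATP2A3, the SERCA gene typical of blood cells and platelets, was at 40.6 and 60.2 CPM in T or NK cell-like and 5.67 and 8.65 CPM in keratinocyte-like cells, and at or below 1.05 CPM in the other 6 sums. Its log2 fold change in T or NK cell-like against keratinocyte-like and fibroblast-like cells was 6.03 ± 0.95 (adjusted p = 3.36e-09). atp2b3b, a PMCA gene, was at 26.4 and 27.3 CPM in T or NK cell-like cells against at most 1.02 CPM elsewhere (5.41 ± 0.84, adjusted p = 2.22e-09). With levels that low elsewhere, atp2b3b passed the filter on low counts only through this class. A difference for it was therefore built in, and its p-value adds nothing to the levels. Both calls were kept in all alternatives run. atp2a1l, a muscle-type SERCA gene by symbol, was at 52.4 CPM in iridophore-like cells from 4 UMIs, 19.5-fold the xanthophore-like level (4.91 to 57.2), and at or below 3.07 CPM elsewhere.

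T or NK cell-like cells had 3 of the 29 genes higher and 6 lower than keratinocyte-like and fibroblast-like cells, beside 13.8% and 19.8% of all genes, and 33.6% either way. ATP2A3 and atp2b3b were among the 3. The 6 lower genes were atp6v1g1, atp6v1ba, atp6v0d1, the ATP6V0C feature ENSORLG00000011910, atp1b1b and the atp7a feature ENSORLG00000022734. Higher and lower genes numbered 2 and 1 without the T or NK cell-like sum of run 1, 3 and 1 without the fibroblast-like sum of run 1, and 3 and 2 without the keratinocyte-like sum of run 1.

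Fibroblast-like cells stood out by the copper pump. The atp7a feature ENSORLG00000022734 was at 74.6 and 30.3 CPM in fibroblast-like, 24.5 and 36.6 in leucophore-like, 19.0 in xanthophore-like, 13.1 in iridophore-like (1 UMI), 11.9 and 2.52 in keratinocyte-like and 2.35 and 0 in T or NK cell-like cells. Fibroblast-like sums were above the other non-pigment sums, a call lost without the fibroblast-like sum of run 1 (3.14 ± 0.61, adjusted p = 4.22e-06), and the leucophore-like sums of run 1 and run 2 lay on both sides of the fibroblast-like sum of run 2. Leucophore-like cells were higher than non-pigment cells (1.83 ± 0.60, adjusted p = 0.0134), a call lost in 4 of 19 alternatives, DESeq2's test among them. The other atp7a feature, ENSORLG00000005709, had 11 UMIs in fibroblast-like cells of run 1 and 0 in run 2, and its call there (adjusted p = 0.0222) was lost with DESeq2's test and without the T or NK cell-like sum of run 1. Without the fibroblast-like sum of run 1 this feature did not pass the filter on low counts. Its higher value in fibroblast-like cells was therefore built in, and its p-value adds nothing to the levels. ATP7A loads copper into enzymes such as lysyl oxidase, which crosslinks collagen, and tyrosinase.

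In all, 2 of the 29 genes were higher and 11 lower in fibroblast-like than in keratinocyte-like and T or NK cell-like cells, beside 17.3% and 10% of all genes, and 27.3% either way. The 2 were the atp7a features, of which ENSORLG00000005709 passed the filter on low counts only with the fibroblast-like sum of run 1. The lower genes held 8 V1 and V0 genes, against 5 with DESeq2's size factors and 2 with library totals. Of all 29 genes, 4 were higher and 7 lower with DESeq2's size factors, and 4 higher and 4 lower with library totals. Over all 12493 genes, 2812 were higher and 1025 lower with DESeq2's size factors, and 3382 higher and 670 lower with library totals. The main ATP6V0C feature (-2.34 ± 0.51, adjusted p = 5.29e-05) was lower in all 19 alternatives. ATP2A3 was lower too (adjusted p = 3.82e-06), with 0 UMIs in both fibroblast-like sums. Without the fibroblast-like sum of run 1, 1 of the 13 calls was left. Keratinocyte markers were at 8244 and 17378 CPM in these sums, and their part was not tested.

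Among the P5-type ATPases, ATP13A3, which in mammals imports polyamines, was at 99.2 and 90.8 CPM in fibroblast-like, 60.4 in xanthophore-like, 24.5 and 20.2 in leucophore-like, 42.5 and 20.9 in keratinocyte-like and 40.0 and 27.3 in T or NK cell-like cells, with 0 UMIs in iridophore-like cells. It was the 1 gene lower in leucophore-like than in non-pigment cells (-1.42 ± 0.53, adjusted p = 0.0362), a call kept in 9 of 19 alternatives, and the 1 gene lower in iridophore-like cells (adjusted p = 0.0187), where DESeq2's test, library totals and leaving out the keratinocyte-like sum of run 1 lost it. The iridophore-like call of ATP13A3 rests on a sum at 0, in which 3 UMIs are 39.3 CPM. That limit lies above the 20.9 CPM of keratinocyte-like and the 27.3 CPM of T or NK cell-like cells of run 2. atp13a2, a lysosomal polyamine exporter in mammals, was at 8.16 and 5.41 CPM in keratinocyte-like cells and was called higher there than in the other non-pigment classes (2.47 ± 0.77, adjusted p = 0.00601), on 72 and 15 UMIs. That call was lost in 7 of 19 alternatives, namely DESeq2's test, library totals, no doublet removal and leaving out either keratinocyte-like sum, the fibroblast-like sum of run 1 or the T or NK cell-like sum of run 1. atp13a1, which removes misplaced proteins from the endoplasmic reticulum, ranged from 1.08 to 16.4 CPM and was not called.

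**Figure D5:**
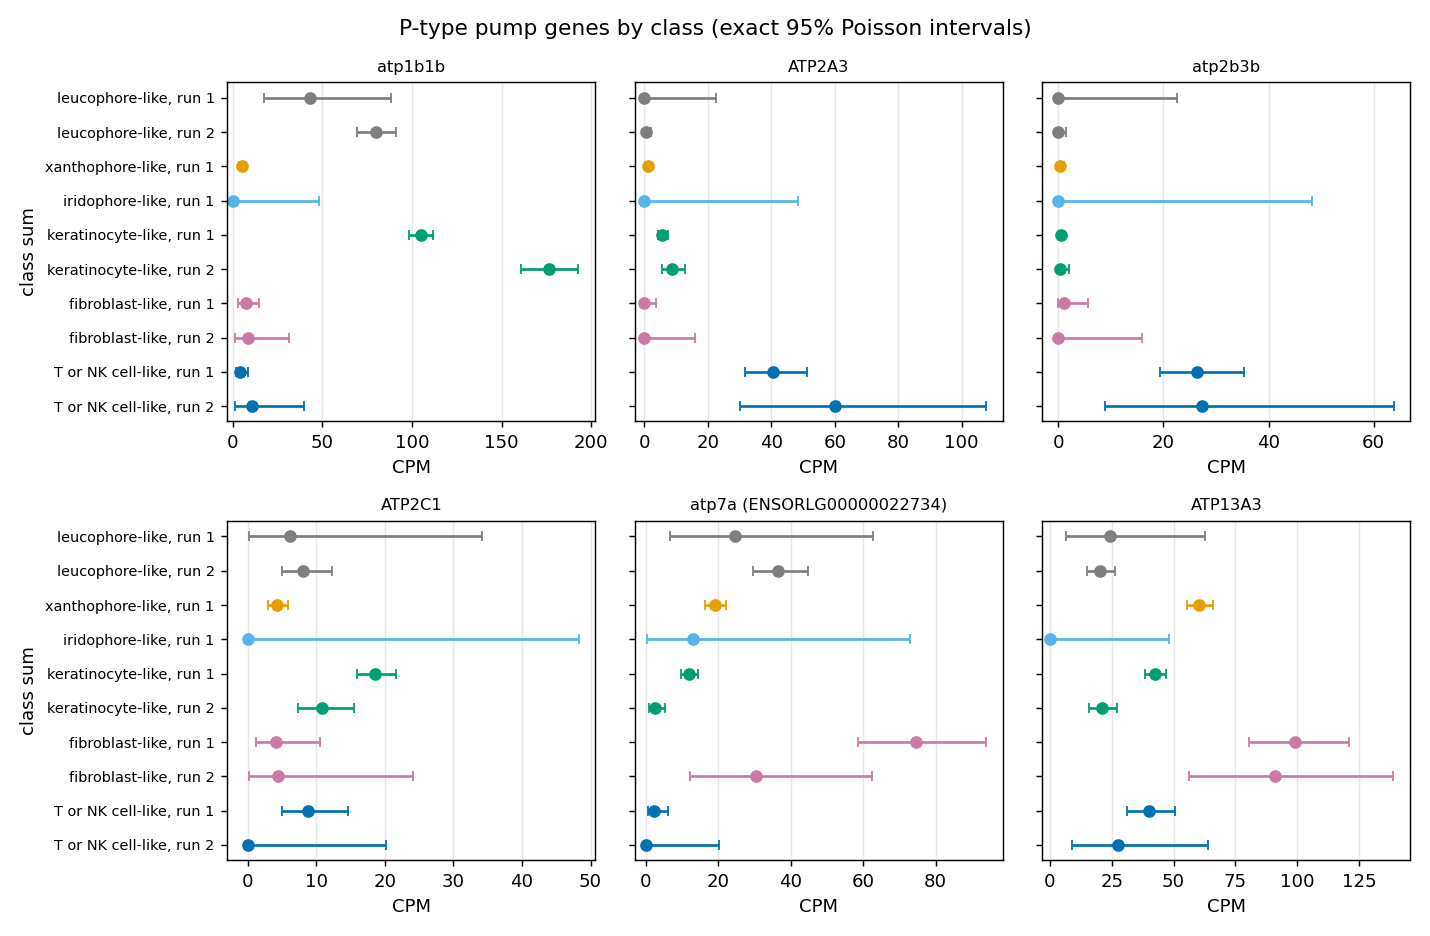
Level in CPM of 6 P-type pump genes in each class sum, with exact 95% Poisson intervals. In keratinocyte-like cells atp1b1b is highest at 105 and 176 CPM and ATP2C1 at 18.6 and 10.8 CPM, ATP2A3 and atp2b3b are high in T or NK cell-like cells, and the atp7a feature shown and ATP13A3 are highest in fibroblast-like cells of run 1.

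Genes that work with these pumps were counted from 5 lists. Of 18 tested genes of pump assembly and regulation, 3 were higher and 0 lower in leucophore-like than in non-pigment cells (13.4% and 8.92% of all genes), 4 and 0 in xanthophore-like (15.7% and 8.33%) and 2 and 0 in iridophore-like cells (4.39% and 2.2%). Against other non-pigment cells, 3 were higher and 0 lower in keratinocyte-like cells (23.8% and 8.2%). Of its regulators of lysosomal genes, mitfa and tfeb were called between leucophore-like and xanthophore-like cells and mitfb was not. mitfb was at 184 and 199 CPM in leucophore-like, 270.4 in xanthophore-like and 249 in iridophore-like cells, and at 39.9 and 12.98 CPM in fibroblast-like cells. mitfa took 156 CPM of the xanthophore-like sum and 0 and 3.81 CPM of the leucophore-like sums (log2 fold change of leucophore-like over xanthophore-like cells -5.88 ± 0.99, adjusted p = 3.32e-07). tfeb, a driver of lysosome and proton pump genes in mammals, was at 18.4 and 27.4 CPM in leucophore-like, 26.2 CPM in iridophore-like (2 UMIs) and 0.583 CPM in xanthophore-like cells (5.09 ± 1.26 for leucophore-like over xanthophore-like cells, adjusted p = 0.00188).

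Of 20 tested endolysosomal channels and exchangers, 2 were higher and 1 lower in leucophore-like than in xanthophore-like cells (2.64% and 3.16% of all genes), and 7 and 2 against non-pigment cells (13.4% and 8.92%). cax1, 1 of those higher in both, was among the markers that named the leucophore-like class and is no finding. slc24a5, a potassium-dependent sodium and calcium exchanger of melanosomes, took 97.9 and 109 CPM of the leucophore-like sums but 0.233 CPM of the xanthophore-like one (8.06 ± 1.15, adjusted p = 7.47e-10). No other sum held slc24a5 above 0.233 CPM, so it passed the filter on low counts only through leucophore-like cells. A difference for slc24a5 was therefore built in, and its p-value adds nothing to the levels. tmem163a, a zinc transporter, was at 6.12 and 0.762 CPM in leucophore-like against 754 CPM in xanthophore-like cells (-6.53 ± 1.06, adjusted p = 8.70e-08). clcn7, the lysosomal chloride and proton exchanger that balances the charge of pumped protons, was at 116 and 168 CPM in leucophore-like, 164 in xanthophore-like and 118 in iridophore-like cells, above all 6 non-pigment sums (44.7 CPM or less), and was called in leucophore-like (2.45 ± 0.46, adjusted p = 1.59e-06) and xanthophore-like cells (2.19 ± 0.50, adjusted p = 0.000106). tpcn2, a lysosomal cation channel, was at 157 and 99.2 CPM in keratinocyte-like cells and at 27.3 CPM or less in the other sums (3.91 ± 0.49, adjusted p = 3.14e-14).

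Of 7 tested Na,K-ATPase regulators, 2 were higher and 0 lower in leucophore-like than in non-pigment cells, beside 13.4% and 8.92% of all genes. These were nkain2 (104 and 63.7 CPM, 6.16 ± 0.75, adjusted p = 1.03e-14) and nkain1 (30.6 and 28.2 CPM, 4.79 ± 0.92, adjusted p = 2.93e-06), whose products bind the beta subunit in mammals. Xanthophore-like cells held nkain2 and nkain1 at 58.2 and 25.8 CPM. Both were called higher there than in non-pigment cells too (5.17 ± 0.78, adjusted p = 6.81e-10, and 4.38 ± 0.86, adjusted p = 4.50e-06). Of the 7, 4 were higher and 0 lower in xanthophore-like than in non-pigment cells (15.7% and 8.33% of all genes). In fibroblast-like cells of runs 1 and 2, nkain2 was at 9.2 and 8.65 CPM and nkain1 at 16.4 and 12.98 CPM. Both genes had 0 UMIs in keratinocyte-like cells of run 2 and in both T or NK cell-like sums. Their fitted sizes rest in part on those sums at 0. Both were also called higher in fibroblast-like than in other non-pigment cells, where 5 of the 7 were higher and 1 lower (17.3% and 10% of all genes). fxyd3, a small modulator of the pump, was called higher in keratinocyte-like than in other non-pigment cells (3.35 ± 0.48, adjusted p = 5.04e-11). Its values were 176 and 99.5 CPM there, 150.3 and 69.2 CPM in fibroblast-like cells and 4.70 and 5.47 CPM in T or NK cell-like cells, so that the last were the low ones. fxyd6, of the same family, was called higher in T or NK cell-like cells (6.02 ± 1.05, adjusted p = 1.43e-07), at 54.7 CPM (93 UMIs) and 5.47 CPM (1 UMI).

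Of 10 tested genes of calcium release, entry and exchange, 0 were higher and 1 lower in leucophore-like than in xanthophore-like cells, beside 2.64% and 3.16% of all genes. The 1 was slc8a1b, a plasma membrane sodium and calcium exchanger, which was higher in xanthophore-like than in non-pigment cells (4.67 ± 0.64, adjusted p = 1.33e-11). Of 11 copper handling genes, 1 was higher and 1 lower in fibroblast-like than in the other non-pigment cells (17.3% and 10% of all genes). The higher one was steap4, a metal reductase (6.27 ± 0.81, adjusted p = 4.44e-13), and the lower one cox17, a copper chaperone of mitochondria (-1.68 ± 0.49, adjusted p = 0.00395). Levels of steap4 were 352 and 208 CPM in fibroblast-like and 71.9 and 129 CPM in keratinocyte-like cells of runs 1 and 2. Both T or NK cell-like sums had 0 UMIs of steap4, so its fitted size rests in part on sums at 0. It was also called higher in keratinocyte-like than in other non-pigment cells. In that comparison 5 of the 11 copper handling genes were higher and 0 lower (23.8% and 8.2% of all genes). For T or NK cell-like against other non-pigment cells, 0 were higher and 3 lower (13.8% and 19.8%). In leucophore-like against non-pigment cells 0 of the 11 were higher and 1 was lower (13.4% and 8.92% of all genes). The lower one was HEPH, a copper ferroxidase (adjusted p = 0.000858). Both leucophore-like sums had 0 UMIs of HEPH, so that call rests on sums at 0, against 3.07 to 11.9 CPM in the non-pigment sums. HEPH was also called lower in xanthophore-like than in non-pigment cells (adjusted p = 0.000708), at 0.233 CPM (2 UMIs). It passed the filter on low counts only through the keratinocyte-like sum of run 2, at 11.9 CPM. A difference for HEPH was therefore built in, and its p-values add nothing to the levels.

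The 8 cells of run 2 that clustered with the xanthophore-like ones and had a UMI of pmela were outside the tests, with 46842 UMIs in all. Their markers go against that class: all 9 melanophore markers were detected, at 15776 CPM, and the 6 xanthophore markers were at 406 CPM (4 of 6 detected), against 4361 CPM in the xanthophore-like sum. They had a V1 and V0 total of 2604 CPM (2163 to 3110) and 171 CPM of atp6v0a1a (8 UMIs).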

How the data were processed

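The authors deposited UMI counts per gene and cell barcode for each run, made with Cell Ranger 7.1.0 per the file headers and the submitters' processing notes; no source used here gives the build or annotation. Counts are of transcript 3′ ends, so levels (CPM, counts per 1000000 UMIs of a class sum, computed here) are not scaled by gene length and levels of different genes are compared as counted ends. The members and lists were chosen with earlier results of these data known.

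Run 1 held 4702 barcodes and 25236411 UMIs (median 4044 per barcode) and run 2 614 barcodes and 6946744 UMIs (median 8861). Kept were barcodes of 500 or more UMIs, 300 or more genes and no more than 20% mitochondrial UMIs (4503 and 577). The doublet caller's own threshold marked 3 and 1, so the highest-scoring cells, at a fallback rate of 4%, were removed (156 and 21). Cells were clustered with scanpy 1.11.5 (2000 variable genes, 30 components, Leiden resolution 1, leidenalg 0.10.2), with 143 features of the members, lists and mitochondria kept out. Clusters were named from marker lists, and 5 of 25 stayed unnamed, among them 350 cells of run 1 close to xanthophore-like cells. Sums of at least 10 cells entered edgeR 4.0.16 (R 4.3.3, limma 3.58.1), with TMM factors, filterByExpr and class and run as terms, which left 3 residual degrees of freedom. Standard errors are the absolute log2 fold change over the square root of F. The run numbers pair the class sums, since sums of 1 run come from the same library. DESeq2 1.42.0 was an alternative. The fit was tested on simulated data, but no outcome of that is reported here, so no result rests on it.

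Members to be named were those called in at least 1 comparison, the most abundant of each family and isoforms with at least 20% of a subunit's UMIs; tcirg1b (outside the symbol rule) and genes of other lists were drawn from those with the 3 lowest adjusted p per list and comparison, and some were left out. With 2 runs, each class sum was left out in turn. RefSeq's gene table (assembly ASM223467v1) matched 0 features by ID and 16 members by symbol, and was used for no value; no sequences are printed. Results on 1 member, which counts toward the totals of genes tested and called, are not reported here.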

Additional observations from a re-analysis of the deposited data

Results flagged for a closer look

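Cell groups outside the tests held pump genes above every class sum that entered them. In the mucous cell-like cells (9 in run 1 and 6 in run 2), atp1b1b stood at 1034 CPM (125 UMIs) and 1161 CPM (165 UMIs), against at most 176 CPM in the tested sums, where keratinocyte-like cells were highest. The name of this group rests on agr2, foxa3 and foxq1a, 3 of 4 mucous cell markers, and is uncertain. None of them was among the 10 genes most raised in the cluster, which included fabp6, chia.3, apoa1b and rbp2a. In the 13 neutrophil-like cells of run 1, ATP6V1A stood at 293 CPM from 5 UMIs, against at most 56.4 CPM in the tested sums, with an upper bound there of 94.6 CPM.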

How the results depend on the processing

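Of the 56 calls of pump genes, 15 were kept in every alternative that could be run, 41 were lost in at least 1, and 6 in 50% or more of them. Main totals of pump genes called, higher and lower together, were 1 for leucophore-like against xanthophore-like, 1 for leucophore-like against iridophore-like, 12, 3 and 1 for leucophore-like, xanthophore-like and iridophore-like against non-pigment cells, and 16, 13 and 9 for keratinocyte-like, fibroblast-like and T or NK cell-like against other non-pigment cells. With DESeq2's test the leucophore-like against iridophore-like total was 0, the iridophore-like total 0 and the fibroblast-like total 8. With DESeq2's size factors the xanthophore-like total was 7 and the iridophore-like total 2. Library totals without TMM, an alternative chosen after seeing the data, gave 10 for xanthophore-like, 3 for iridophore-like and 8 for fibroblast-like cells. The fibroblast-like total was 8 with cells with pmela kept and 8 without doublet removal. Without the replicate block (the run term), the leucophore-like against iridophore-like total was 2 and the iridophore-like total 2, and no other total moved by over 1.5 times.

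Leaving out each sum in turn, these totals ranged from 0 to 1 for leucophore-like against xanthophore-like, 2 to 15 for leucophore-like, 1 to 5 for xanthophore-like, 0 to 1 for iridophore-like, 8 to 17 for keratinocyte-like, 1 to 14 for fibroblast-like and 3 to 10 for T or NK cell-like cells. The sums whose absence moved a total by over 1.5 times were leucophore-like of run 2 (leucophore-like totals 0 and 2), keratinocyte-like of run 2 (leucophore-like 7), keratinocyte-like of run 1 (xanthophore-like 1, iridophore-like 0, keratinocyte-like 8, fibroblast-like 6, T or NK cell-like 5), fibroblast-like of run 1 (1 and, for T or NK cell-like, 4), fibroblast-like of run 2 (6), and T or NK cell-like of run 1 (4 and 3) and of run 2 (xanthophore-like 5). A single value reversed: ATP2C1 in fibroblast-like cells (main -2.16, -2.21 to 1.54 when sums were left out) was 1.54 ± 4.44 without the T or NK cell-like sum of run 1 (adjusted p = 0.908). The cause of these changes was not tested. The xanthophore-like and iridophore-like comparisons could not be fitted without their 1 sum.

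The share of all calls that were higher moved with the scaling, from TMM to DESeq2's size factors to library totals: 74.35%, 61.44% and 45.64% for keratinocyte-like, 63.31%, 73.29% and 83.46% for fibroblast-like, 66.63%, 75.02% and 91.2% for iridophore-like, 60.11%, 57.86% and 74.39% for leucophore-like cells against non-pigment cells, and 44.61%, 36.26% and 28.22% for leucophore-like against iridophore-like cells. Depth limits the iridophore-like sum most, where 3 UMIs are 39.3 CPM.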

Other observations

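The highest proton pump totals of any cell group were in an unnamed cluster of 68 cells in run 1 and 14 in run 2, whose best marker scores were those of B cells and macrophages. Its V1 and V0 genes took 3547 CPM (3279 to 3832) in run 1 and 2670 CPM (2309 to 3071) in run 2, and ATP6V1A alone 127 and 299.6 CPM. The group named mucous cell-like, a name that is uncertain, took 2059 and 1394 CPM. The 350 unnamed cells of run 1 nearest to xanthophore-like cells took 1547 CPM and had 59.4 CPM of atp6v0a1a, close to the 1489 and 65.8 CPM of the named xanthophore-like cells.

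atp1a2a, the alpha subunit of muscle and glia in mammals, was found mainly in a shallow unnamed cluster whose best marker score was that of Schwann or glial cells, with 5 UMIs in 24 cells of run 1 (120 CPM) and 10 UMIs in 6 cells of run 2 (746 CPM). atp2b2, a PMCA gene, stood at 81.9 CPM (18 UMIs) and 18.3 CPM (3 UMIs) in endothelial-like cells. Among xanthophore-like clusters of run 1 the V1 and V0 total ranged from 1419 to 1976 CPM, and atp6v0a1a from 39.4 to 74.7 CPM.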
